A study of Mus musculus with 2 samples.

Results

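The proteasome genes of colon epithelial cells were compared between 1 library from a Pkm2-/- mouse preparation and 1 library from a wild type one. The members were all symbols made of Psm, a letter from a to g and a number, without pseudogene symbols. This pattern found 49 of the 22350 gene symbols in the files, and no symbol was shared by several entries among them. Of the 49, 47 averaged 1 FPKM or more over the libraries (a count of fragments scaled to transcript length and to the mapped total of the library), as did 12429 genes in all. Psme2b and Psmb11 were below that level, and Psma8, the testis form of an alpha subunit, was listed in neither library. Psmc3ip and Psme2b match the pattern without being subunits, the first as a recombination factor and the second as a copy of Psme2.

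Both groups were C57BL/6 mice that took DSS (dextran sulfate sodium) at 2.5% for 3 days. This polymer damages the lining of the colon, so no uninjured tissue enters any comparison. The Pkm2-/- mice lack the M2 form of pyruvate kinase. The sources used here do not say how the allele was made, or how old and how many the animals behind each library were. Since each genotype has a single library, no test could be made, and each difference describes these 2 libraries only. Intervals given with a fold are 95% counting intervals, which cover the counting of fragments only and neither animals nor preparations.

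The proteasome is the barrel-shaped protease that degrades proteins tagged with ubiquitin. Its 20S core stacks rings of alpha subunits, which form the gate, on rings of beta subunits, of which Psmb5, Psmb6 and Psmb7 cut proteins. Interferon-gamma induces Psmb8, Psmb9 and Psmb10, which take the places of these in newly built cores (the immunoproteasome), and Psme1 and Psme2, which form the PA28 cap. Immunoproteasomes favour peptides that fit MHC class I molecules. In most cells the core is joined to the 19S regulator, whose base of ATPases unfolds the substrate and whose lid removes ubiquitin, and immune cells carry immunoproteasomes without any stimulus.

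The depth implied by the lowest values was about 20200000 fragments in the Pkm2-/- and 18700000 in the wild type library, so that 1 FPKM of a 2 kb transcript rested on about 40 and 37 fragments. Pkm itself, measured over all its isoforms, stood at 86.2 FPKM in the Pkm2-/- and 281 FPKM in the wild type library. All 10 epithelial markers were listed in both libraries, with a sum of 7483 FPKM in the Pkm2-/- and 6526 FPKM in the wild type library. The T cell list summed to 86.2 and 21.3 FPKM in the Pkm2-/- and wild type libraries, the macrophage and dendritic cell list to 37.7 and 14 FPKM, and the B and plasma cell list to 32.2 and 8.37 FPKM. Most of the macrophage and dendritic cell sum came from the pan-leukocyte gene Ptprc (16.1 and 5.94 FPKM) and Laptm5 (9.84 and 3.29 FPKM). The macrophage markers Csf1r (0.472 and 0.282 FPKM), Adgre1 (0.23 and 0.0925 FPKM) and Cd68 (1.56 and 1.63 FPKM) were low in both libraries. Fibroblast markers summed to 1.35 FPKM in the Pkm2-/- and 4.34 FPKM in the wild type library, and endothelial markers to 0.387 and 0.390 FPKM, with Pdgfra not listed in the Pkm2-/- and Cdh5 not listed in the wild type library.

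The 5 interferon-inducible subunits were all higher in the Pkm2-/- library, and the 3 catalytic ones ranked in the order Psmb9, Psmb8 and Psmb10 by fold. Psmb9, whose product is LMP2 and takes the place of the caspase-like Psmb6, stood at 138 FPKM in the Pkm2-/- library, against 43.4 FPKM in the wild type library, which was 3.19-fold higher (2.98 to 3.41). Psmb8, whose product is LMP7 and takes the place of the chymotrypsin-like Psmb5, stood at 249 FPKM in the Pkm2-/- library, against 97.1 FPKM in the wild type library, 2.57-fold higher (2.46 to 2.68). Psmb10, whose product is MECL-1 and takes the place of the trypsin-like Psmb7, stood at 216 FPKM in the Pkm2-/- library, against 124 FPKM in the wild type library, 1.74-fold higher (1.66 to 1.82). The 3 intervals did not overlap each other, so the differences behind this order were larger than counting error, although the order was read from a single library of each genotype. In bulk RNA, a larger share of cells that express a gene cannot be told apart from more of its RNA per cell.

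The activator genes of the PA28 cap were the most abundant of the 5 in the wild type library and had smaller folds. Psme2, the beta subunit of the cap, had the highest level of all 49 members in both libraries, with 273 FPKM in the Pkm2-/- and 191 FPKM in the wild type library, a fold of 1.43 (1.37 to 1.49). Psme1, its alpha subunit, stood at 237 FPKM in the Pkm2-/- and 153 FPKM in the wild type library, a fold of 1.55 (1.48 to 1.62). The level of Psme2 over that of Psme1 was 1.15 in the Pkm2-/- and 1.25 in the wild type library, so both partners of the cap were at similar levels in each. Of the 31-base words of the Psme2 transcript, 66.2% are also found in Psme2b, so the assignment of reads between them is uncertain. Psme2b was listed at 0.668 FPKM in the Pkm2-/- and 0.613 FPKM in the wild type library.

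The genes that the inducible subunits replace differed little. Psmb5, the constitutive chymotrypsin-like subunit, stood at 72.0 FPKM in the Pkm2-/- and 68.7 FPKM in the wild type library, a fold of 1.05 (0.967 to 1.14). Psmb6, the caspase-like subunit, stood at 82.2 FPKM in the Pkm2-/- and 75.9 FPKM in the wild type library, a fold of 1.08 (0.999 to 1.17). Psmb7, the trypsin-like subunit, stood at 76.8 FPKM in the Pkm2-/- and 68.2 FPKM in the wild type library, a fold of 1.13 (1.05 to 1.21). The counting intervals of Psmb5 and Psmb6 included 1, and that of Psmb7 did not. With library medians set equal, the ratio of Psmb5 turned to slightly below 1. Psmb5 shares 74.0% of its 31-base words with other entries, mostly the pseudogene Gm3375, which was listed at 0.0303 FPKM in the Pkm2-/- library and not in the wild type library.

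**Figure D1:**
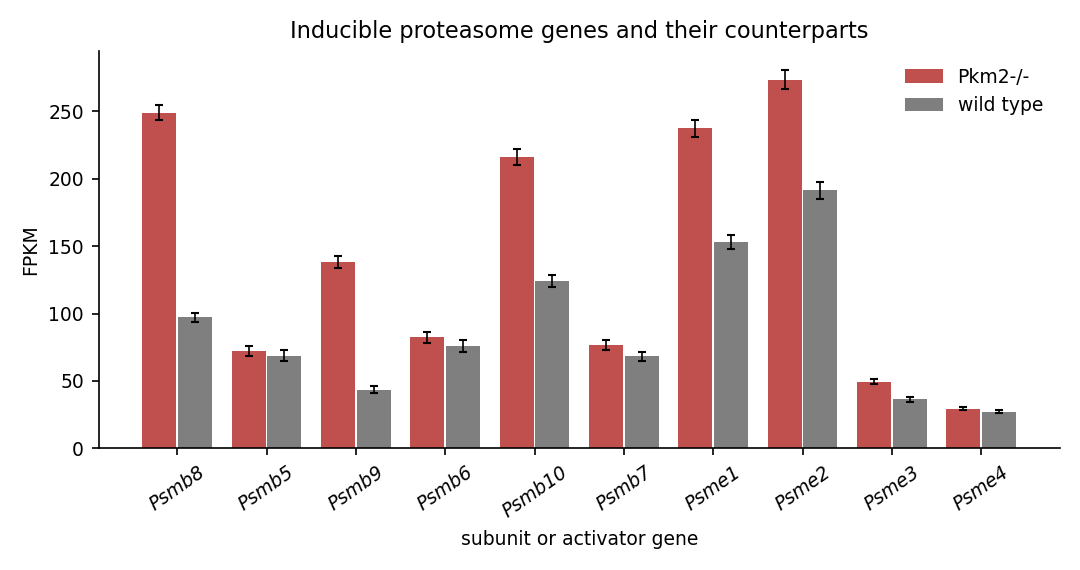
Level in FPKM (vertical axis, linear, from 0) of the inducible proteasome genes and their constitutive counterparts, with the Pkm2-/- library in red to the left of the wild type library in grey. Bars are the value of 1 library each and error bars are 95% Poisson limits of the implied fragments. Psmb8, Psmb9, Psmb10, Psme1 and Psme2 are taller in red, while Psmb5 (72.0 and 68.7 FPKM) and Psmb6 (82.2 and 75.9 FPKM) are nearly level.

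Set pair by pair, the inducible subunit made up more of the FPKM of its catalytic place in the Pkm2-/- library at all 3 places. Psmb8 made up 77.6% of the sum of Psmb8 and Psmb5 in the Pkm2-/- library, against 58.5% in the wild type library. Psmb10 made up 73.8% of the sum with Psmb7 in the Pkm2-/- library, against 64.6% in the wild type library. Psmb9 made up 62.7% of the sum with Psmb6 in the Pkm2-/- library, against 36.3% in the wild type library, so the place of Psmb6 was the only one of the 3 with the constitutive gene ahead in wild type cells. For the 3 places summed, the share was 72.3% in the Pkm2-/- and 55.4% in the wild type library.

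These shares compare genes within a library, and the change in each pair does not depend on how the libraries are scaled to each other. The ratio of Psmb9 to Psmb6 was 2.94 times as high in the Pkm2-/- library as in the wild type library (2.65 to 3.27, an exact conditional interval of the odds ratio of the fragments). That of Psmb8 to Psmb5 was 2.45 times as high (2.24 to 2.68), and that of Psmb10 to Psmb7 was 1.54 times as high (1.42 to 1.68). On the scale of log2 ratios with 1 FPKM added, the differences within the pairs were 1.54, 1.28 and 0.62 for the places of Psmb6, Psmb5 and Psmb7. The 6 catalytic genes together had 1.60 times the FPKM of the 4 remaining beta genes Psmb1 to Psmb4 in the Pkm2-/- library and 1.08 times in the wild type library.

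**Figure D2:**
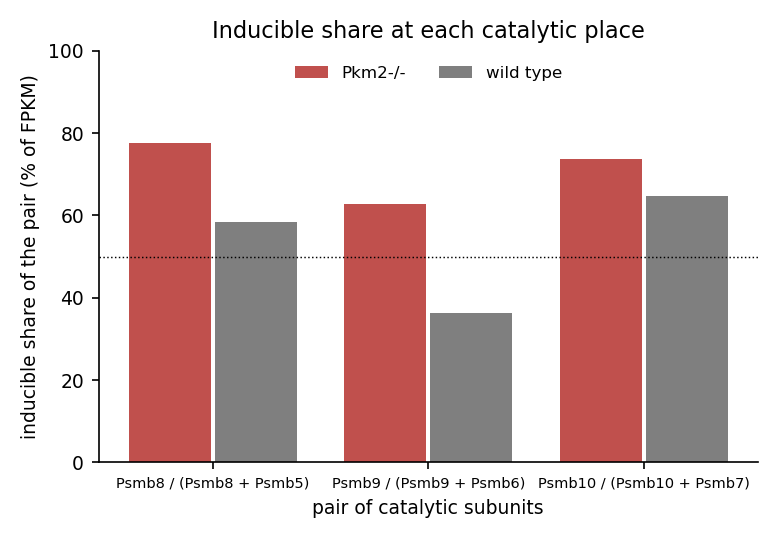
Share of the inducible gene in the FPKM of each pair of catalytic subunits, in percent (vertical axis, 0 to 100), for the Pkm2-/- library in red and the wild type library in grey, with the dotted line at 50%. The share is higher in red in all 3 pairs, and only the wild type bar of Psmb9 (36.3%) lies under the line.

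The other activators served as the comparison for PA28. Psme3, which encodes the nuclear activator PA28-gamma, stood at 49.3 FPKM in the Pkm2-/- and 36.4 FPKM in the wild type library, a fold of 1.35 (1.27 to 1.44). Psme4, which encodes the activator PA200, stood at 29.5 FPKM in the Pkm2-/- and 27.3 FPKM in the wild type library, a fold of 1.08 (1.03 to 1.13). Set against Psme4, the ratio of Psme1 was 1.43 times as high (1.34 to 1.53) and that of Psme2 1.32 times as high (1.24 to 1.41) in the Pkm2-/- library. Set against Psme3, the figures were 1.15 (1.06 to 1.23) for Psme1 and 1.06 (0.98 to 1.14) for Psme2. The cap genes therefore stood apart from PA200 beyond counting error, whereas the difference of Psme2 from Psme3 was within it. Psmf1, the proteasome inhibitor PI31, stood at 13.7 and 12.1 FPKM in the Pkm2-/- and wild type libraries.

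On the log2 scale with 1 FPKM added, the median ratio of Pkm2-/- over wild type was 0.79 over the 5 inducible genes, 0.11 over their 5 counterparts (Psmb5, Psmb6, Psmb7, Psme3 and Psme4) and 0.06 over all 12429 genes. Of the 47 members, 2 (Psmb8 and Psmb9) were at least 2-fold higher, against 1.42% of all genes, and 0 were at least 2-fold lower, against 1.90% of all genes. At 1.5-fold on the same scale, 6 were higher, against 4.46% of all genes. They were Psmb8, Psmb9, Psmb10, Psme1 and, outside the inducible set, the alpha subunits Psma1 and Psma5, and 0 were at least 1.5-fold lower, against 5.29% of all genes. Psmc3ip, which is no subunit, lay just under that threshold with a log2 ratio of 0.57, and Psme2 was next with 0.51. By plain FPKM ratio, with nothing added, Psmc3ip passed as well at 1.67-fold (1.21 to 2.33), which made 7 members higher, against 6.63% of all genes, and 0 lower, against 7.60%.

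Below these, nearly the whole complex was slightly higher in the Pkm2-/- library. Of the 47 members, 46 had a log2 ratio above 0, against 58.8% of all genes. The count was 43 with library medians set equal, when Psmb5, Psmd4 and the assembly chaperone Psmg2 turned. At that scaling the median over all genes was -0.01, so the share of 58.8% does not apply to the 43. Where the mean level reached 25 FPKM, a limit chosen after the values were seen, all 38 members were above 0, against 60.2% of 3131 genes, and the median was 0.26 over the 33 that are not inducible and 0.07 over all 3131. A slight rise was not particular to the proteasome, since the 10 epithelial markers had a median of 0.21, with 9 of them above 0. The 28 other subunits of the core and the regulator had a median of 0.26, a 1.20-fold difference, with a range of 0.01 to 0.72, and this median was 0.18 with library medians set equal. The counting interval of the fold lay above 1 for 39 of the 47 members and included 1 for 8, and it lay above 1 for 37.3% of the 12393 genes for which it could be computed. It lay above 1.04, the fold of the all-gene median, for 33 members, against 29.9% of those genes. All members together, the inducible ones included, made up 0.733% of the summed FPKM in the Pkm2-/- and 0.513% in the wild type library. The 5 inducible genes summed to 1114 and 609 FPKM in the Pkm2-/- and wild type libraries, and the other 44 members to 2799 and 2281 FPKM. The total also differed in make-up, with 26.1% of it from mitochondrial entries and their copies in the Pkm2-/- and 30.0% in the wild type library.

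The alpha ring was higher than the constitutive beta ring in its ratios. The constitutive set is not the whole beta ring, because inducible subunits can take the places of Psmb5, Psmb6 and Psmb7. The 3 inducible beta genes summed to 603 FPKM in the Pkm2-/- and 265 FPKM in the wild type library. The median ratio of the 7 alpha genes was 0.41, each lay above 0, and they summed to 882 FPKM in the Pkm2-/- and 649 FPKM in the wild type library. Psma1 stood at 158 FPKM in the Pkm2-/- and 95.5 FPKM in the wild type library, a fold of 1.65 (1.57 to 1.74), close to that of the inducible Psmb10. Psma5 stood at 93.7 FPKM in the Pkm2-/- and 58.1 FPKM in the wild type library, a fold of 1.61 (1.51 to 1.73), and 64.0% of its 31-base words occur in other entries. Psma7 had the highest level of the ring, at 163 and 122 FPKM in the Pkm2-/- and wild type libraries, and Psma6 the lowest fold, at 92.6 and 83.1 FPKM. No 31-base word of Psma1 or Psma7 was found in another gene's transcripts.

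The 7 constitutive beta genes had a median of 0.17 and a narrower range, 0.07 to 0.32, and summed to 751 FPKM in the Pkm2-/- and 657 FPKM in the wild type library. Psmb3, for which 66.8% of the 31-base words occur in other entries, stood at 118 and 100.4 FPKM in the Pkm2-/- and wild type libraries, a fold of 1.18 (1.10 to 1.26). Psmb2 had the largest fold, 1.25 (1.17 to 1.34), with 113 and 90.04 FPKM in the Pkm2-/- and wild type libraries. Psmb1 stood at 139 and 128 FPKM and Psmb4 at 150.1 and 125 FPKM in the Pkm2-/- and wild type libraries, the highest levels of this ring. The catalytic Psmb5, Psmb6 and Psmb7 were the 3 lowest members of the ring in the Pkm2-/- library. In the wild type library Psmb5 and Psmb7, at 68.7 and 68.2 FPKM, were the lowest pair and differed by less than counting error.

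In the 19S regulator the ATPase genes had the narrowest range of ratios of any role with more than 1 gene. The 6 ATPase genes Psmc1 to Psmc6, whose products unfold substrates and open the gate of the core, had log2 ratios between 0.20 and 0.26. Psmc3, the most abundant of them, stood at 78.0 FPKM in the Pkm2-/- and 65.4 FPKM in the wild type library. Psmc4 had the largest ratio, at 57.5 and 47.7 FPKM in the Pkm2-/- and wild type libraries, and Psmc1 the smallest, at 53.96 and 46.9 FPKM. The intervals of all 6 overlapped.

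The subunits without ATPase activity varied more. In the base, the scaffold gene Psmd2 stood at 94.9 FPKM in the Pkm2-/- and 69.3 FPKM in the wild type library, a fold of 1.37 (1.31 to 1.43), with 45.3% of its words shared with other entries. Psmd4, which encodes a ubiquitin receptor, was level, at 69.3 FPKM in the Pkm2-/- and 69.0 FPKM in the wild type library, and Psmd1, the other scaffold, stood at 48.2 and 39.0 FPKM. In the lid, all 8 genes had ratios above 0, between 0.10 for Psmd8 (59.7 and 55.8 FPKM in the Pkm2-/- and wild type libraries) and 0.47 for Psmd3 (65.9 and 47.2 FPKM). Psmd14, the deubiquitinase of the lid, stood at 51.4 FPKM in the Pkm2-/- and 41.2 FPKM in the wild type library, a fold of 1.25 (1.16 to 1.35). Psmd12 had the lowest level of the lid, at 33.8 and 26.7 FPKM in the Pkm2-/- and wild type libraries. The 17 genes of the regulator had a median of 0.25, against 0.28 for the 14 constitutive genes of the core.

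The assembly chaperones were less abundant than every constitutive subunit of the core and the regulator. The core chaperones Psmg1 to Psmg4 lay between 10.5 and 13.99 FPKM in the Pkm2-/- and between 10.4 and 11.8 FPKM in the wild type library, with ratios from 0.02 for Psmg2 to 0.23 for Psmg3. The counting intervals of all 4 included 1. Of the base chaperones, Psmd10 (gankyrin) stood at 15.4 FPKM in the Pkm2-/- and 12.4 FPKM in the wild type library, a fold of 1.24 (1.07 to 1.43), and Psmd5 at 14.2 and 12.6 FPKM. Psmd9, at 6.74 FPKM in the Pkm2-/- and 7.18 FPKM in the wild type library, was the only one of the 47 with a ratio below 1, 0.939, and its interval of 0.806 to 1.09 included 1. Psmc3ip, the recombination factor, was at 4.18 and 2.50 FPKM in the Pkm2-/- and wild type libraries, from about 109 and 60 fragments. The thymus subunit Psmb11 was listed at 0.00536 FPKM in the Pkm2-/- library alone.

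**Figure D3:**
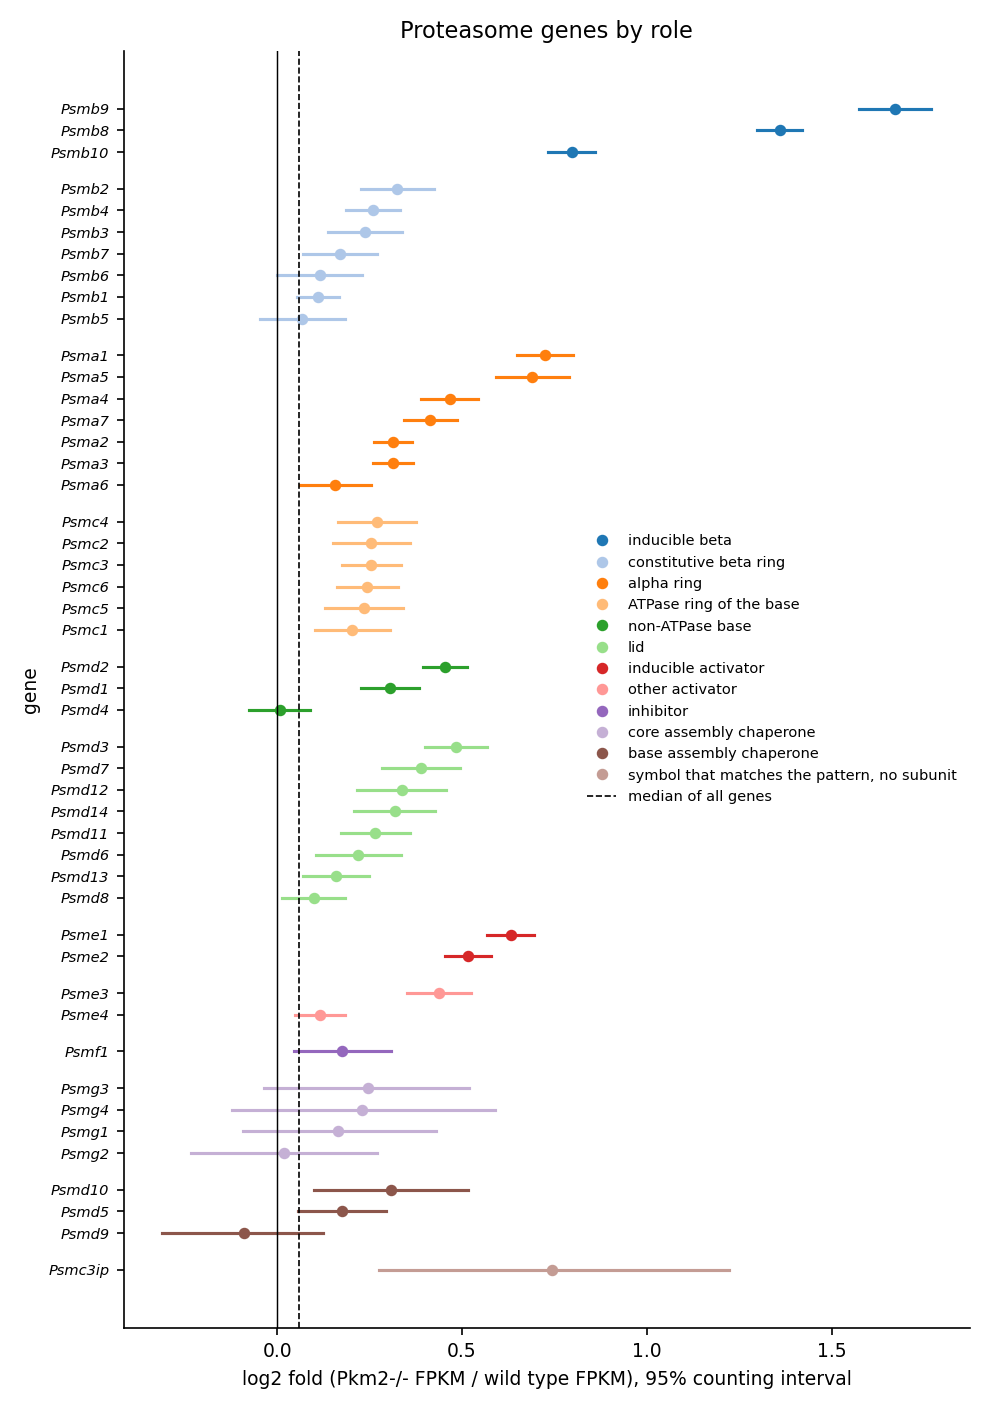
Log2 fold of Pkm2-/- over wild type FPKM (horizontal axis) for the 47 genes that averaged 1 FPKM or more, grouped by role, with lines for 95% counting intervals, a solid line at 0 and a dashed line at the median of all genes, 0.06 on the scale with 1 FPKM added. The 3 inducible beta genes lie farthest right, Psma1 and Psma5 lead the alpha ring, the 6 ATPase genes line up closely, and the recombination factor Psmc3ip, with the fewest fragments of the 47, has the widest interval.

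**Figure D4:**
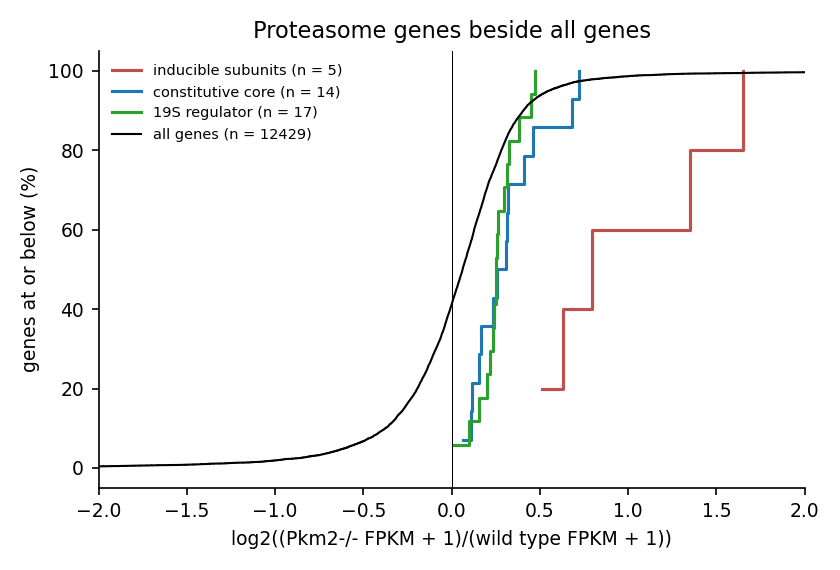
Cumulative share of genes (vertical axis, percent) by log2 ratio with 1 FPKM added (horizontal axis, cropped at -2 and 2) for the 5 inducible genes, the 14 constitutive core genes, the 17 regulator genes and all 12429 genes. The curves of the core and the regulator start at 0.07 and 0.01, right of 0, and the inducible curve starts at 0.51.

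Genes that act with the proteasome but lie outside the symbol pattern were compared from lists made with the member list. Of 10 partners and assembly factors, 9 lay above 0, against 58.8% of all genes, with a median of 0.30. Of these 10, 0 were at least 2-fold higher, against 1.42% of all genes, and 0 at least 2-fold lower, against 1.90%. At such shares, a list this short does not differ from all genes in these 2-fold counts. Pomp, the maturation factor of new cores, stood at 52.7 FPKM in the Pkm2-/- and 45.0 FPKM in the wild type library. Nfe2l1, the transcription factor that drives proteasome genes when proteasome activity is low, stood at 48.3 FPKM in the Pkm2-/- and 37.8 FPKM in the wild type library, a fold of 1.28 (1.22 to 1.33). Of the 5 genes listed with it (Nfe2l1 itself, Ngly1, Ddi2, Vcp and Nfe2l2), 4 lay above 0, against 58.8% of all genes. Among these 4, Nfe2l2 was level, with a fold of 1.01 (0.971 to 1.06). Ngly1 lay below 0, with a fold of 0.869 (0.8 to 0.942). At least 2-fold higher or lower were 0 of the 5, against 1.42% and 1.90% of all genes. Of the 5 ubiquitin precursor and ubiquitin-like genes, the interferon-inducible Ubd, which targets proteins to the proteasome, stood at 103 FPKM in the Pkm2-/- and 5.78 FPKM in the wild type library, and the other 4 were below 1.5-fold.

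The regulators of the inducible subunits did not differ in the same direction. Of 9 genes of interferon signalling, 3 were at least 2-fold higher in the Pkm2-/- library, against 1.42% of all genes, and 0 at least 2-fold lower, against 1.90%, and their median log2 ratio was -0.09. Irf1, a transcription factor that induces immunoproteasome genes, stood at 247 FPKM in the Pkm2-/- and 103 FPKM in the wild type library. The others were Irf8, at 135 FPKM in the Pkm2-/- and 42.2 FPKM in the wild type library, and Nlrc5, the activator of MHC class I genes, at 31.01 and 14.7 FPKM. The receptor genes Ifngr1 (65.8 and 82.0 FPKM in the Pkm2-/- and wild type libraries) and Ifngr2 (27.3 and 29.1 FPKM) and the type I interferon partners Stat2 (47.1 and 67.2 FPKM) and Irf9 (38.2 and 50.97 FPKM) were not. All 9 MHC class I loading genes lay above 0, against 58.8% of all genes, and 3 of them reached 2-fold, against 1.42%. These were Tap1, at 165 FPKM in the Pkm2-/- and 59.6 FPKM in the wild type library, the loading editor Tapbpl, at 43.4 and 19.03 FPKM, and the light chain B2m, at 2472 and 1012 FPKM.

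Immune cells can add inducible subunits to a bulk value, and most of their markers were also higher in the Pkm2-/- library. The pan-leukocyte gene Ptprc stood at 16.1 FPKM in the Pkm2-/- and 5.94 FPKM in the wild type library, and all 8 T cell genes that averaged 1 FPKM or more were higher, from Lck (9.05 and 4.14 FPKM) to Gzma (25.03 and 3.34 FPKM). Of the macrophage and dendritic cell genes at that level, which include Ptprc, 6 of 7 lay above 0, and the macrophage marker Cd68 stood at 1.56 FPKM in the Pkm2-/- and 1.63 FPKM in the wild type library. The 3 B and plasma cell genes at that level all lay above 0. Itgam, Itgax, Fcer1g, Tyrobp and the plasma cell gene Jchain were below 1 FPKM in the wild type library. They reached the level only through the Pkm2-/- library, so the filter fixed their direction and these 2 counts carry little information. Over all genes, 58.8% lay above 0. All 11 T cell, 6 B and plasma cell and 9 macrophage and dendritic cell markers were listed in both libraries. The part of these cells in the inducible subunits was not tested.

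The inducible genes sit in neighbouring pairs. On GRCm38, Psmb9 (ENSMUSG00000096727) lies on chromosome 17 from 34181987 to 34187764 on the minus strand and Psmb8 (ENSMUSG00000024338) from 34197721 to 34201454 on the plus strand, 9956 bases apart within the MHC region. Psmb9 overlaps the start of Tap1 on the other strand, so reads from the overlap cannot be assigned where counting ignores strand, and the antisense entry Gm20496 at Psmb8 was listed at 1.61 and 0.761 FPKM in the Pkm2-/- and wild type libraries. Psme1 (ENSMUSG00000022216) spans 55578123 to 55581529 and Psme2 (ENSMUSG00000079197) 55587441 to 55591113 on chromosome 14, 5911 bases apart. Psmb10 (ENSMUSG00000031897) lies on chromosome 8 from 105935735 to 105938444 on the minus strand.

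The promoter windows below are shown because the inducible and constitutive genes of a pair differed in ratio while their products share a place in the core. They are RefSeq windows of 300 bases on GRCm38.p6, 250 before to 50 after the RefSeq start of transcription, 5′ to 3′ on the gene's strand, and capitals mark matches to the motifs that follow. These starts are not the gene ends given above, which come from GENCODE. The RefSeq start lies 474 bases inside the GENCODE gene for Psmb8, 434 for Psmb9 and 371 for Psme1, so the whole windows of these 3 lie within their genes, and 52 bases inside for Psmb10 and 12 for Psme2.
Psmb8 (chr17:34197945-34198244, plus strand): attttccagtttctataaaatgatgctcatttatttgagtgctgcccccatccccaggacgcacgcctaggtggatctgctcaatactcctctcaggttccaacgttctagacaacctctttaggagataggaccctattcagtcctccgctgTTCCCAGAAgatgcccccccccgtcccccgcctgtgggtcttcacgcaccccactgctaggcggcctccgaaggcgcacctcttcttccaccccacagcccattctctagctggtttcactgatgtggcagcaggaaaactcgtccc
Psmb9 (chr17:34187281-34187580, minus strand): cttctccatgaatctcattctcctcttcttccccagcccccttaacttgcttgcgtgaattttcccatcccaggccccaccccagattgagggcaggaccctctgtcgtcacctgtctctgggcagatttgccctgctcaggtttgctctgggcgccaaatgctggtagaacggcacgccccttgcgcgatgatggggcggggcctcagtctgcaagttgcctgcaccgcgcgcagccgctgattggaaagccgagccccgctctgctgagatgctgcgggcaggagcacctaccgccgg
Psmb10 (chr8:105938343-105938642, minus strand): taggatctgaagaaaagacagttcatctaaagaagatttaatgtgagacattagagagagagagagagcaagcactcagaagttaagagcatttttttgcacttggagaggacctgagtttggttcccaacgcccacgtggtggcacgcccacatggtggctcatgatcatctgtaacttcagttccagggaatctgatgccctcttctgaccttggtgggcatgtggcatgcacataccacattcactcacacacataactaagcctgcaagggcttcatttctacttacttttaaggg
Psme1 (chr14:55578244-55578543, plus strand): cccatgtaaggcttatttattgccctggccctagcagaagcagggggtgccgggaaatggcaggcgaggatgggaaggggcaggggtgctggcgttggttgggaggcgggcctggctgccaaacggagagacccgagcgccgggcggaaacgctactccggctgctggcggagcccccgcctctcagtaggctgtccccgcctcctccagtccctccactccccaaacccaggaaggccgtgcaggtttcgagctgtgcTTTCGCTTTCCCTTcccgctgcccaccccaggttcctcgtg
Psme2 (chr14:55591052-55591351, minus strand): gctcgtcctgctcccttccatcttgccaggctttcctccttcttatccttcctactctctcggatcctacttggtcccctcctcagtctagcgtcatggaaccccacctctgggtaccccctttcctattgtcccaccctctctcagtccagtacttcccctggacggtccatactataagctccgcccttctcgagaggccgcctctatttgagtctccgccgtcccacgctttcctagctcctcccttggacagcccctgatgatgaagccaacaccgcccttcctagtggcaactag
Psmb5 (chr14:54617946-54618245, minus strand): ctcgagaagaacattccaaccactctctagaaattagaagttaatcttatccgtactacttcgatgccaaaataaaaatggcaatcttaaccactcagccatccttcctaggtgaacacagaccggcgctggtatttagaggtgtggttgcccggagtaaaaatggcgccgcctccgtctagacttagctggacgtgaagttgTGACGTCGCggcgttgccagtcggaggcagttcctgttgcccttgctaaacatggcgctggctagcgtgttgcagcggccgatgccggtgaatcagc
Psmb6 (chr11:70525107-70525406, plus strand): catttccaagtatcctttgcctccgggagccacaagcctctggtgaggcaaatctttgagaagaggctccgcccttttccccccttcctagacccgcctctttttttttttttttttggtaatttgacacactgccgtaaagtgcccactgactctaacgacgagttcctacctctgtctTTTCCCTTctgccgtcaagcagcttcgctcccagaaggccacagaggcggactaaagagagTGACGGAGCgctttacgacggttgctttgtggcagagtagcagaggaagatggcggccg

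The motifs were searched on both strands in all 300-base windows of the table, which held 42 of the 49 members, and positions are counted from 1 at the 5′ end of a window. The core bound by interferon regulatory factors, AANNGAAA, was in the windows of 13 of the 42 members and of 26.7% of 27025 genes. Among the inducible genes it was in Psme1 alone, at bases 260 to 267 and, overlapping, 266 to 273, and of the 4 counterparts with a window (Psmb5, Psmb6, Psme3 and Psme4; Psmb7 was not searched) in Psmb6 alone. The gamma-activated site, TTCNNNGAA, was in 3 members (Psmb8, Psmd2 and Psmg1) and in 9.55% of all genes, and that of Psmb8 lies at bases 154 to 162. The antioxidant response element core, TGACNNNGC, which Nfe2l1 and Nfe2l2 can bind, was in 6 of the 42 members, including Psmb5, Psmb6 and Psme4, and in 3781 of the 27025 genes. Different motifs did not overlap in any member's window. No match was found for Psmb9, Psmb10 or Psme2, which says only that these letters are not in these windows. The Psmb9 window and that of Tap1 on the other strand cover largely the same bases.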

How the data were processed

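Messenger RNA was measured in 1 Pkm2-/- and 1 wild type library of colon epithelial cells. The files have no header, and the deposited values were read as FPKM because the submitters' processing notes name Cufflinks 2.2.1 and Cuffdiff (1.3.0, 2.2.1), beside TopHat2 2.1.1 and Bowtie2 2.2.9, and the values have that form. The notes name the build mm8. However, 99.96% of the IDs found in GENCODE M21 had a locus that matched GRCm38, whose coordinates are used. The files list no zeros, and strand use was not stated.

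Values were summed by symbol with pandas 2.3.3 in Python 3.11.15. The log2 ratio was log2((Pkm2-/- FPKM + 1)/(wild type FPKM + 1)), which understates the difference of low genes, and folds are plain FPKM ratios. Counts cover genes that averaged 1 FPKM or more, at thresholds of 2-fold and 1.5-fold. Fragments were estimated from the worth of 1 fragment (0.0494 FPKM times kb in the Pkm2-/- and 0.0536 in the wild type library) and the longest coding transcript, and intervals from scipy 1.17.1 (Clopper-Pearson for a fold). This step was tested on counts simulated with the same transcript lengths. The effect of a shorter expressed transcript, which would mean fewer fragments and wider intervals, was therefore not tested. Shared sequence is the share of 31-base words of the longest coding transcript found in other genes' GENCODE M21 transcripts. The named genes were the inducible subunits, their counterparts, the extremes of each role and all members at least 1.5-fold apart. The members and gene lists were chosen with earlier results of these data known. Other pseudocounts, filters and scalings were tried. Some genes of these lists are not reported here.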

Additional observations from a re-analysis of the deposited data

How the results depend on the processing

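The medians over the inducible subunits, their counterparts and the other core and regulator subunits, the 3 differences within catalytic pairs and the counts at 2-fold were recomputed with pseudocounts of 0.1 and 5, without a filter, with a filter at 5 FPKM, and with 3 other scalings. None of these medians or differences turned in sign. With library medians set equal, the medians were 0.71 for the inducible subunits, 0.03 for their counterparts and 0.18 for the other subunits, and with upper quartiles set equal they were 0.73, 0.05 and 0.20. With the mean over members they were 0.99, 0.18 and 0.30. At 1.5-fold in place of 2-fold, 6 members were higher and 0 lower, and 7 and 0 by plain FPKM ratio, a choice made after seeing the data. Under the other pseudocounts, filters and the scaling without mitochondrial entries, the medians were 0.77 to 0.80, 0.11 and 0.25 to 0.27. The differences within pairs ranged over all settings from 1.46 to 1.56 at the place of Psmb6, 1.25 to 1.29 at that of Psmb5 and 0.61 to 0.63 at that of Psmb7, and the counts at 2-fold were 2 higher and 0 lower in each. The sign of single members turned under 2 scalings, for Psmb5, Psmg2 and Psmd4 with equal medians and for Psmg2 and Psmd4 with equal upper quartiles. No paired analysis was possible because each genotype has 1 library, and none could be left out. Depth limits Psmc3ip most, with 60 fragments in the wild type library, and then the chaperones, where as few as 120 lie behind a value.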
